A study of Mus musculus and Homo sapiens with 9 samples.

Results

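Heat-shock and DNAJ genes encode the chaperones that fold newly made and damaged proteins. The members were taken by symbol from the gene annotation (GENCODE M21 for mouse, GENCODE v44 for human): protein-coding genes whose symbol starts with HSPA, HSPB, HSPD, HSPE, HSPH or DNAJA, DNAJB or DNAJC and a digit, or with HSP90 and A or B. The rule took 72 of 21938 mouse and 74 of 20033 human protein-coding genes, that is 146 of 41971 in all. The human count includes 3 read-through genes, DNAJC25-GNG10, HSPE1-MOB4 and HSPB2-C11orf52, named for the member at which they begin. DNAJC25-GNG10 and HSPE1-MOB4 share their promoter peaks with DNAJC25 and HSPE1. The rule used symbols only, and no measured value.

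R-loops, in which an RNA strand pairs with its DNA template and leaves the other DNA strand single, were mapped by CUT&Tag, an assay in which an antibody guides a transposase to cut and tag nearby DNA. Each of the 9 peak lists came from 1 library, so no difference between lists has a replicate check and no test between groups was possible. In mouse embryonic fibroblasts (MEFs, grown from embryo trunks and immortalised with an SV40 gene), the antibody S9.6, which binds DNA-RNA hybrids, was used on Mcm8 wildtype (WT) cells, Mcm8 knockout (KO) cells, control cells (shControl) and cells with Ddx5 knocked down by an adenoviral short hairpin (shDdx5). The fifth MEF library, of wildtype cells, had no primary antibody. In HEK293 cells, a human embryonic kidney line of wildtype genotype, the lists came from a mouse IgG control, from anti-FLAG on cells transfected with a FLAG-MCM8 plasmid, from S9.6, and from S9.6 after transfection with an RNH1 plasmid (RNase H1, which cuts the RNA strand of such hybrids). FLAG-MCM8 was overexpressed, so its list does not show endogenous MCM8. MCM8 is a helicase of the minichromosome maintenance family, and DDX5 is an RNA helicase that unwinds such hybrids.

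Chaperones work in relays. HSP70 proteins (HSPA genes) hold unfolded chains in cycles of ATP hydrolysis, J-domain proteins (DNAJ genes) bring clients and trigger that hydrolysis, and HSPH1 and HSPA4 exchange the nucleotide. HSP90, the HSP60-HSP10 barrel (HSPD1 and HSPE1) and the small heat-shock proteins (HSPB genes) act before or after that cycle, and a core set is switched on by the transcription factor HSF1 at heat-shock elements, while chaperones of the endoplasmic reticulum (ER) are switched on at ER stress elements.

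A promoter peak was a listed peak whose midpoint lay within 1 kb of a transcription start site (TSS) of the gene. The MEF lists held 4314 to 12259 peaks down to a −log10 p of about 3, and the HEK293 lists 12497 to 17178 peaks down to about 5, so numbers are not compared between the species. Total reads per library are unknown from the lists. The fold enrichment (fragments over the local background) and the p of a peak together gave its number of overlapping fragments, called the pileup here, for 99.9% or more of the peaks in each list. The smallest pileup was 6 or 7 in the MEF S9.6 lists, 3 in the no-antibody list and 10 to 14 in HEK293. Depth relative to WT, estimated from the lowest local background and the shortest peak, was 0.883 to 1.08 in the other MEF S9.6 libraries and 0.111 without antibody, so the no-antibody list is a much shallower control. Relative to S9.6 in HEK293 it was 0.80 for FLAG-MCM8, 1.05 for IgG and 1.06 for RNH1. Peak names inside the shControl and shDdx5 lists begin with shD1 and shD2, which do not tell control from knockdown, and the groups follow the sample labels. Peak lists cannot show whether Mcm8 or Ddx5 was lost. At the targeted genes themselves, Mcm8 had a promoter peak in KO (fold 3.31) and shDdx5 (4.31), and Ddx5 in KO (3.94), shControl (4.02) and shDdx5 (3.69). Of 7 fibroblast marker genes Vim had a promoter peak in all 4 MEF S9.6 lists and Pdgfra in shControl, and none of 5 markers of blood, epithelial and endothelial cells had one in any MEF list. Of 6 genes known from HEK293 cells 1 had one with FLAG-MCM8 (PAX8), 1 with S9.6 (PAX2), 2 in RNH1 (VIM and WT1) and none in IgG.

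Heat-shock elements, short inverted GAA units, stood in few promoters, and the stretches are printed because some lie under peaks described below. The letters GAANNTTCNNGAA and TTCNNGAANNTTC, which are the same 3-unit element on either strand, were looked for in the 300 bases before 1 representative TSS of each gene. They occurred in 6 of 74 human members (8.11%) against 0.414% of all human protein-coding genes, and in 3 of 72 mouse members (4.17%) against 0.483% of all. The 2-unit forms GAANNTTC and TTCNNGAA, which are also part of the 3-unit element, occurred in 21 human members (28.4%, all genes 11.7%) and 16 mouse members (22.2%, all genes 14.4%). Many heat-inducible genes lacked the 3-unit match. HSPA1A, HSPA1B, DNAJA1, DNAJB1 and HSPB1 had 2-unit matches only. In mouse so did Hspa1a, Hspa1b, Hsph1, Dnaja1 and Hspb1, and Dnajb1, Hsp90aa1 and Hspa8 had neither form. The ER stress element, CCAAT and CCACG with 9 bases between them on either strand, occurred in HSPA5 and HSP90B1 (2.70% of human members, all genes 0.110%) and in Dnajc3 and Hsp90b1 (2.78% of mouse members, all genes 0.119%). A match is a description of the letters. The stretches below run 5′ to 3′ along the gene, with 5 flanking bases on either side and the element in capitals. All lie upstream of the representative TSS. Overlapping elements were joined, and the mouse Hspd1 stretch is also that of Hspe1 on the other strand.
HSPD1, hg38 chr2:197500063-197500090, minus strand: gcattTTCTGGAAAGTTCTGGAAccgag
HSPA8 (distal), hg38 chr11:123062349-123062371, minus strand: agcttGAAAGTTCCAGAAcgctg
HSPA8 (proximal), hg38 chr11:123062174-123062196, minus strand: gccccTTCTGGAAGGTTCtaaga
HSPH1, hg38 chr13:31161946-31161968, minus strand: gcagaTTCTGGAAAGTTCtgatc
HSP90AA1, hg38 chr14:102087115-102087137, minus strand: ggttcTTCCGGAAGGTTCgggag
HSPA6, hg38 chr1:161524461-161524483, plus strand: aaaggTTCGCGAAAGTTCgcggc
DNAJB6, hg38 chr7:157336868-157336890, plus strand: gccgaGAACCTTCGCGAAggtgg
Hspd1, mm10 chr1:55088054-55088081, minus strand: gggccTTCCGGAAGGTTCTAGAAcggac
Dnajb6, mm10 chr5:29735847-29735869, plus strand: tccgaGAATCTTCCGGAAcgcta
HSPA5 (ER stress element), hg38 chr9:125241386-125241414, minus strand: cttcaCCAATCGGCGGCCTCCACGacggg
HSP90B1 (ER stress element, distal), hg38 chr12:103930211-103930239, plus strand: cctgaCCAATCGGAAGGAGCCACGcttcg
Hsp90b1 (ER stress element, distal), mm10 chr10:86705633-86705661, minus strand: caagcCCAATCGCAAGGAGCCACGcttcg

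Members carried S9.6 promoter peaks in every S9.6 list at a larger share than all protein-coding genes. In WT MEFs 25 of 72 members (34.7%, 95% Wilson interval 24.8 to 46.2) had a promoter peak, beside 11.3% of all protein-coding genes. In KO the count was 23 (31.9%, 22.3 to 43.4) beside 16.0%, in shControl 18 (25.0%, 16.4 to 36.1) beside 14.7%, and in shDdx5 25 (34.7%, 24.8 to 46.2) beside 23.1%. Without primary antibody 1 member had a promoter peak (1.39%, 0.246 to 7.46) beside 1.24% of all genes, in a library of 0.111 times the WT depth. In HEK293 the S9.6 list held 35 of 74 members (47.3%, 36.3 to 58.5) beside 30.1%, and the RNH1 list 32 (43.2%, 32.6 to 54.6) beside 24.6%. The FLAG-MCM8 list held 16 (21.6%, 13.8 to 32.3) beside 12.0%, and the IgG list 4 (5.41%, 2.12 to 13.1) beside 5.59%. The intervals cover counting error only, and members that share a promoter are not independent. Promoters also differ in base composition, whose part in these shares was not tested. The median GC content from 300 bases before to 500 after the TSS was 62.7% in mouse members and 57% in all mouse genes, and 64.4% and 63.3% in human.

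**Figure D1:**
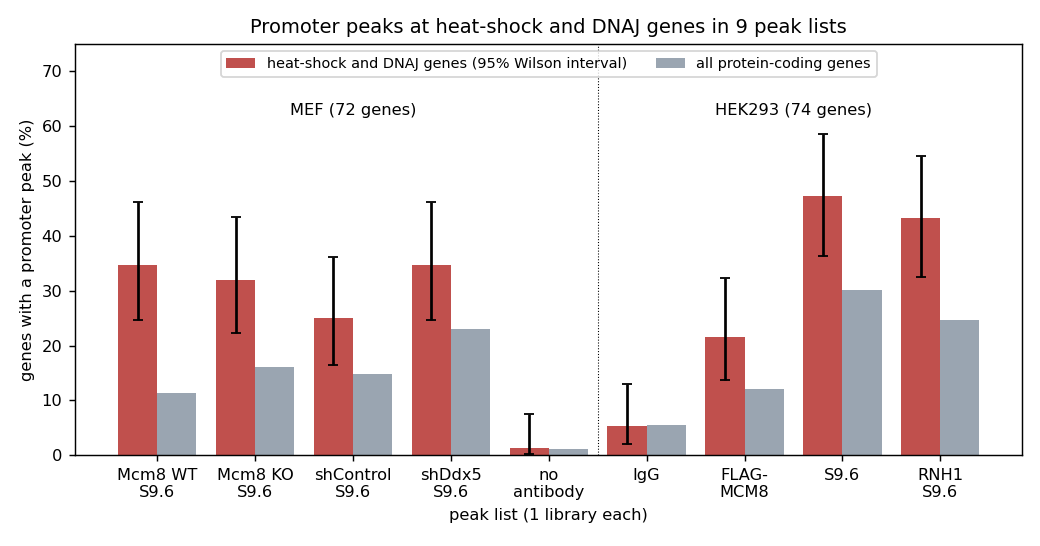
Share of genes with a promoter peak (percent) in each of the 9 peak lists, for the heat-shock and DNAJ genes (red, error bars are 95% Wilson intervals) and all protein-coding genes (grey). The members stand above all genes in the S9.6 and FLAG-MCM8 lists (for example 34.7% against 11.3% in WT) and level with them in the no-antibody and IgG lists.

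Hspa8, the constitutive HSP70 of the cytosol, had the strongest promoter peak of any mouse member. Its fold enrichment was 3.90 (WT), 6.20 (KO), 5.15 (shControl) and 7.83 (shDdx5). The pileups were 13 fragments in WT (exact 95% Poisson interval 6.92 to 22.2), 21 in KO (13.0 to 32.1), 15 in shControl (8.40 to 24.7) and 31 in shDdx5 (21.1 to 44). These counting intervals overlap within each pair of lists. No Hspa8 promoter peak was listed without antibody. The peaks overlapped at the start of the gene (mm10 chr9:40800812-40801709 in shDdx5, over the 5′ end of the gene record at 40800984). The KO value was 1.59 times the WT value and the shDdx5 value 1.52 times the shControl value, each from 1 library without a replicate.

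Hspa8 was 1 of 6 members with a promoter peak in all 4 MEF S9.6 lists, 8.33% of members beside 4.19% of all genes. Dnajb1, the heat-inducible partner of HSP70, had fold values of 4.19 (WT), 4.52 (KO), 3.47 (shControl) and 4.83 (shDdx5). Its peaks spanned the start of the gene, and a start of Tecr lay within 1 kb of their midpoints. Hspb11, which carries an HSPB symbol and is a part of the intraflagellar transport machinery, had fold values of 5.67, 5.06, 3.70 and 6.31 in the same order. Its WT peak was the strongest among members in that list by p (−log10 p 11.4). A start of Lrrc42 lay within 1 kb of all 4 Hspb11 peaks. Hspa2, an HSP70 of male germ cells, had fold values of 3.94 (WT), 5.48 (KO), 4.32 (shControl) and 4.57 (shDdx5). Dnajc17, a J-domain protein linked to splicing, had 4.78, 4.29, 5.00 and 5.62 in that order and shares its promoter with Zfyve19. Dnaja3, of mitochondria, was in all 4 lists through peaks at 2 different starts. Its WT peak (fold 3.80) and strongest shDdx5 peak (4.17) lay near one start, and its KO (2.92) and shControl (3.41) peaks and a second shDdx5 peak (3.49) at the other, near a start of Vasn.

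The other core chaperones were seen in fewer MEF lists. Hsph1, the HSP110 exchange factor, had no promoter peak in WT and fold values of 3.55 in KO, 4.61 in shControl and 7.14 in shDdx5, where its pileup was 24. Dnaja1, a J-domain partner of cytosolic HSP70, had none in WT and values of 3.91, 3.97 and 5.18 in KO, shControl and shDdx5. Both genes were thus highest in shDdx5. Hsp90aa1, the inducible HSP90, had a fold of 4.60 in WT, 3.47 in KO and 3.84 in shDdx5, the last at another start, and none in shControl. Hsp90ab1, the constitutive HSP90, was listed in shDdx5 alone (3.93). Of the stress-inducible HSP70 pair, Hspa1a had a peak in WT (3.80) and shDdx5 (5.26), shared with Hspa1l, and Hspa1b in shControl (3.96) and shDdx5 (3.91). Over the 250 bases before the TSS the 2 genes are identical at 247 (98.8%), so reads of one may have been placed at the other. Hspd1 and Hspe1, the mitochondrial HSP60 and HSP10, share 1 bidirectional promoter, whose only peak was a weak one in WT (fold 2.66, −log10 p 3.08). The joined heat-shock element printed above lies partly under it. Hspa9, the mitochondrial HSP70, and Hspb1, the small heat-shock protein HSP27, had no promoter peak in any MEF list.

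**Figure D2:**
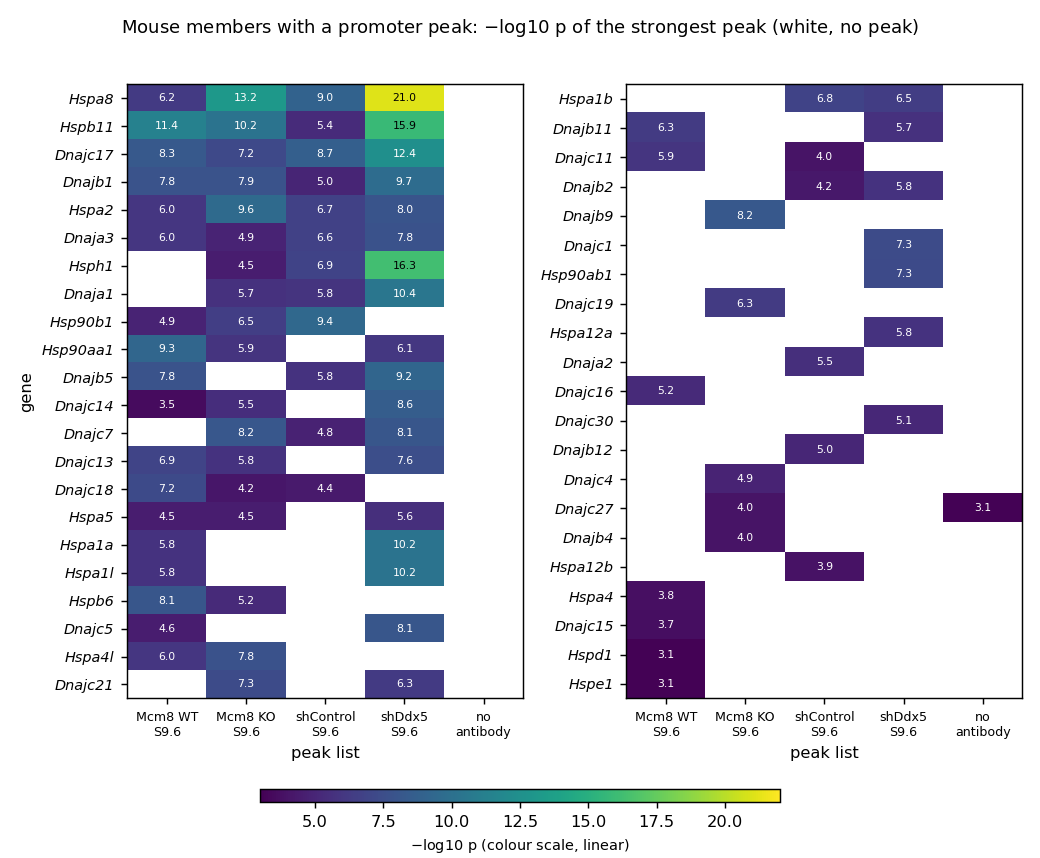
−log10 p of the strongest promoter peak (colour and number) of each mouse member with a promoter peak in any of the 5 MEF lists, ordered by the number of S9.6 lists and then by the highest value. Hspa8 reaches 21.0 in shDdx5, and the no-antibody column holds 1 value, Dnajc27 at 3.11.

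The KO and WT lists were compared to see which member promoters had a peak with and without MCM8. Both lists held 14 members, 9 were in KO only (12.5%, all genes 9.38%) and 11 in WT only (15.3%, all genes 4.66%). The share of members was -2.78 percentage points in KO less WT (interval -17.8 to 12.4), while over all protein-coding genes it was 4.71 (4.07 to 5.35). The members' interval includes the value of all genes, so a different shift of the members was not detectable with 72 genes. Members in KO only were Dnaja1, Hsph1, the ER J-domain protein Dnajb9 (fold 5.28), the mitochondrial import gene Dnajc19 (4.27), Dnajb4, Dnajc4, Dnajc7, Dnajc21 and Dnajc27. Members in WT only were Hspa1a, Hspa1l, Hspa4, Hspd1, Hspe1, Dnajb5, Dnajb11, Dnajc5, Dnajc16 and the mitochondrial Dnajc11 and Dnajc15. Of these, Hspd1, Hspe1, Hspa4 and Dnajc15 had WT peaks with a −log10 p under 4, near the list's limit of 3. Among the 14 members in both lists the fold was higher in KO for 6 and lower for 8 (median ratio 0.956). It was higher in KO for 60% of all genes in both lists (median ratio 1.06). The strongest peak of each gene was compared whether or not the peaks overlapped. Of the 8 lower members Dnaja3 (ratio 0.767) and Hspb6 (0.782) had KO and WT peaks that did not overlap.

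In the comparison of shDdx5 with shControl more members had a peak after the knockdown, as did genes in general. Both lists held 12 members, 13 were in shDdx5 only (18.1%, all genes 13.3%) and 6 in shControl only (8.33%, all genes 4.97%). The difference was 9.72 percentage points (-5.19 to 24.1), beside the 8.36 (7.63 to 9.09) of all genes. The members' interval includes 0 at the deposited thresholds, and it excludes 0 with stricter thresholds on fold, q or p. The difference was 15.3 (3.26 to 27.1, all genes 5.73) with a fold of at least 4, 19.4 (5.29 to 32.7, all genes 10.9) with a q of 0.05 or lower, and 18.1 (3.76 to 31.5, all genes 8.27) with a p of 1e-05 or lower. These thresholds do not cut both lists alike, as a q of 0.05 or lower kept 60.5% of the shDdx5 peaks and 28.1% of the shControl peaks. With the same number of strongest peaks from each list the difference was 12.5 (-1.81 to 26.2, all genes 5.07), an interval that includes 0. The WT and shControl lists, neither of which had a depletion, also differed by 9.72 points in members (-5.19 to 24.1, WT less shControl) and by -3.42 (-4.05 to -2.79) over all genes. Among the 12 members in both lists the fold was higher in shDdx5 for 11 (median ratio 1.26), beside 68.5% of all genes in both lists (median ratio 1.12). Hsph1 (4.61 to 7.14), Hspb11 (3.70 to 6.31) and Hspa8 (5.15 to 7.83) differed most, and Hspa1b was the exception (3.96 to 3.91). The members in shDdx5 only included Hsp90aa1, Hsp90ab1, Hspa1a, Hspa5 and Dnajc14. Those in shControl only were Hsp90b1 (5.39), Dnaja2 (4.09), Dnajb12 (3.50), Dnajc11, Dnajc18 and Hspa12b.

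Few members were listed in both depletions and in neither control. Dnajc21, a J-domain protein of ribosome biogenesis, was the 1 member in KO and shDdx5 and in neither WT nor shControl (1.39% of members, all genes 2.95%). Its KO peak (fold 4.89) and shDdx5 peak (4.24) lay at different starts and did not overlap. Dnajc11, a protein of the mitochondrial inner membrane contact sites, was the 1 member in WT (3.89) and shControl (3.11) and in neither KO nor shDdx5 (1.39%, all genes 0.365%), also with peaks that did not overlap. The 1 member in the no-antibody list was Dnajc27, whose peak there had a pileup of 3 (fold 2.86) and lay at another start than its KO peak (3.26). In all, 29 of 72 members (40.3%) had no promoter peak in the 4 S9.6 lists, beside 66.1% of all genes.

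By place of work, the mitochondrial members had a promoter peak for 5 of 8 in WT (Dnaja3, Dnajc11, Dnajc15, Hspd1 and Hspe1) and for 2 of 8 in each of the other S9.6 lists, beside the 11.3 (WT), 16.0 (KO), 14.7 (shControl) and 23.1% (shDdx5) of all genes. In WT 3 of the 5 rest on 2 peaks near the list's limit, the shared one of Hspd1 and Hspe1 (−log10 p 3.08) and that of Dnajc15 (3.72). The heat-inducible members, a list of 10 genes, had one for 6 (WT), 5 (KO), 5 (shControl) and 7 (shDdx5). The ER members had 5 of 12 (WT), 4 (KO), 3 (shControl) and 3 (shDdx5). Hspa5, the ER HSP70 known as BiP, had a fold of 3.22 in WT, 3.20 in KO and 3.45 in shDdx5 and no peak in shControl. Hsp90b1, the ER HSP90, had 3.56 in WT, 4.23 in KO and 5.39 in shControl and none in shDdx5. The start of Ttc41 lay nearer to those Hsp90b1 peaks, and its distal ER stress element lay under the shControl peak and under a second, weaker KO peak (3.91). Of 13 tissue-restricted members 1 to 3 had a peak in each S9.6 list, among them Hspa2 in all 4. These lists are small, and their shares were not tested against those of all genes.

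**Figure D3:**
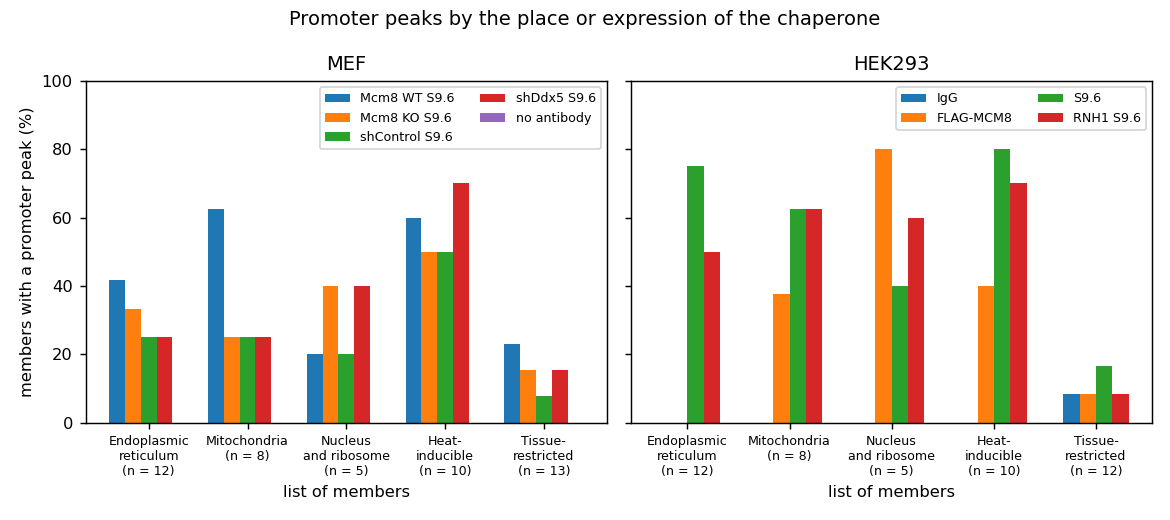
Share of members with a promoter peak (percent) by list of members, for the 5 MEF lists (left) and the 4 HEK293 lists (right). The bars carry no error bars, and the ER members show 75% with S9.6 and 0 with FLAG-MCM8 in HEK293.

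In HEK293 cells the strongest member peak was at the shared promoter of HSPD1 and HSPE1, the genes of mitochondrial HSP60 and HSP10. The fold was 10.7 in the S9.6 list (pileup 71, exact 95% Poisson interval 55.5 to 89.6), 7.50 in the RNH1 list (48, 35.4 to 63.6) and 7.19 in the FLAG-MCM8 list (24, 15.4 to 35.7), with no peak in IgG. The 3 peaks overlapped at the divergent starts (hg38 chr2:197499799-197500418 with S9.6), and the joined heat-shock element printed above lay under all 3. DNAJC9, a J-domain protein that also handles histones, followed with 10.3 in S9.6 (pileup 61), 7.20 in RNH1 (51) and 5.69 in FLAG-MCM8 (15). HSPA8 had 8.42 in S9.6 (pileup 56) and 5.51 in RNH1 (33) and no FLAG-MCM8 or IgG peak. Both of its printed elements lay under the S9.6 peak and, the proximal one in part, under the RNH1 peak. DNAJC21 had 6.83 in S9.6, 6.74 in RNH1 and 6.04 in FLAG-MCM8.

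The remaining core chaperones of HEK293 lay lower. HSP90AA1 had a fold of 5.39 in S9.6 and 4.91 in RNH1 at an outer start shared with WDR20, and 4.62 in FLAG-MCM8 near the inner start, so these peaks did not overlap. The RNH1 list held a second HSP90AA1 peak (4.15) over the printed heat-shock element. HSP90AB1 had 3.88 in S9.6, 3.71 in RNH1, 4.49 in FLAG-MCM8 and 3.40 in IgG, where it was 1 of the 4 members. Its RNH1 peak overlapped both its IgG and its FLAG-MCM8 peak, and did not overlap its S9.6 peak. HSP90B1 had 5.85 and 6.50, and HSPA9 5.18 and 5.20, in S9.6 and RNH1, and neither had a FLAG-MCM8 peak. HSPH1 had 4.04 in S9.6 and 6.88 in RNH1. HSPA5 was listed in RNH1 only (4.47), with its ER stress element under the peak, and DNAJA1 in S9.6 only (4.61). HSPA1B had 4.33 in S9.6 and 5.01 in RNH1, upstream of its start, and HSPA1A had none. These genes are 94.0% identical over the 250 bases before the start and share a run of 1692 bases with no difference, so the placing of reads between them is uncertain. HSPB1 had no promoter peak in any HEK293 list.

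**Figure D4:**
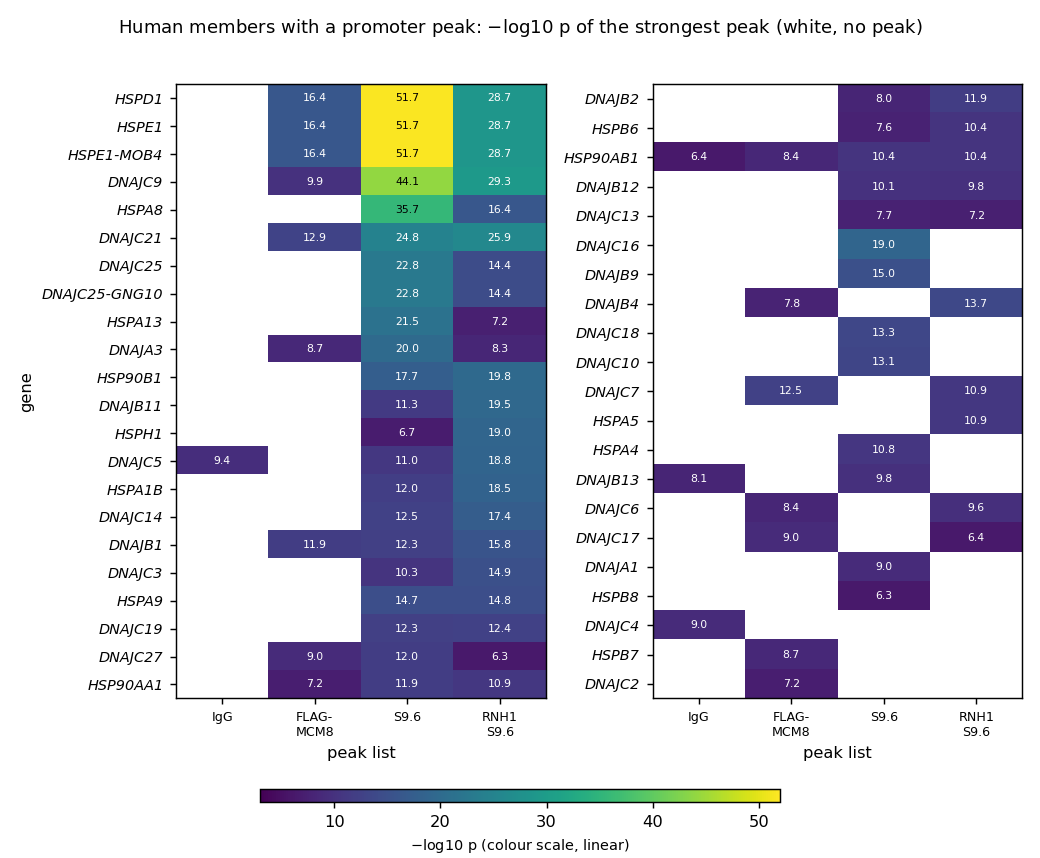
−log10 p of the strongest promoter peak (colour and number) of each human member with a promoter peak in any of the 4 HEK293 lists, ordered by the number of S9.6 lists and then by the highest value. HSPD1, HSPE1 and HSPE1-MOB4 share 1 peak, which reaches 51.7 with S9.6, and 4 members have a value in the IgG column.

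The RNH1 list was compared with the S9.6 list to see which peaks were absent when RNase H1 was overexpressed. The 2 lists shared 27 members, 8 were in S9.6 only (10.8%, all genes 12.6%) and 5 in RNH1 only (6.76%, all genes 7.18%). The difference in share was -4.05 percentage points (-19.5 to 11.7), and -5.43 (-6.30 to -4.56) over all genes. Of the 35 members with an S9.6 peak 77.1% (61.0 to 87.9) also had one in the RNH1 list, beside 58.1% of all genes with an S9.6 peak. The strongest S9.6 peak of each member had a median −log10 p of 12.3, beside 10.3 for all promoter peaks of that list. These medians are unlike, as the first takes 1 peak for each member and the second every promoter peak. The part of peak strength in this share was not tested. Members that share a peak, such as HSPD1, HSPE1 and HSPE1-MOB4, are each counted. The 8 in S9.6 only were DNAJC16 (fold 5.24), DNAJB9 (6.69), DNAJC18 (6.08), DNAJC10 (6.41), HSPA4 (4.84), DNAJB13 (3.86), DNAJA1 (4.61) and HSPB8 (3.71). The first 4 work in the ER or its membrane, so the ER list went from 9 of 12 members in S9.6 to 6 of 12 in RNH1, with HSPA5 the 1 newly listed. Over all genes 2526 of the 6022 with an S9.6 peak were absent from RNH1, and 4 of 9 is near that share. The 5 in RNH1 only were DNAJB4, DNAJC17, DNAJC6, DNAJC7 and HSPA5.

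For the 27 members in both lists, the fold was lower in the RNH1 list for 15 and higher for 12 (median ratio 0.957), beside lower for 2241 of 3496 genes in both lists (median ratio 0.926). Of the 15, HSPD1, HSPE1 and HSPE1-MOB4 are 1 shared peak (ratio 0.701), and DNAJC25 and DNAJC25-GNG10 another (0.778). The lower side thus holds fewer peaks than members. Peaks of the 2 lists did not overlap for HSP90AB1, on the lower side, and for DNAJC5 and HSPB6, on the higher side. The strongest S9.6 peaks were among those that were lower, but they were picked by their value in 1 of the 2 libraries. Peaks picked so tend to be lower in a second library, so no conclusion is drawn from this order. HSPA13, an ER HSP70, went from 8.85 to 4.32, DNAJA3 from 6.55 to 3.69, DNAJC27 from 5.78 to 3.57, HSPA8 from 8.42 to 5.51, DNAJC9 from 10.3 to 7.20 and HSPD1 from 10.7 to 7.50. On the other side were HSPH1 (4.04 to 6.88), DNAJB11, an ER J-domain protein (4.66 to 6.37), and DNAJC5, the cysteine string protein (4.09 to 5.54), whose 2 peaks lay at different starts. The DNAJC5 peak of the RNH1 list overlapped an IgG peak (4.24). The estimated depth of the RNH1 library was 1.06 times that of the S9.6 library, and none of the folds has a replicate.

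FLAG-MCM8 was compared with IgG to see which member promoters carried the tagged protein. The 2 lists shared 1 member, HSP90AB1, with peaks that did not overlap. FLAG-MCM8 alone held 15 members (20.3%, all genes 10.8%) and IgG alone 3 (4.05%, all genes 4.33%). The difference was 16.2 percentage points (5.23 to 27.4), and 6.42 (5.87 to 6.97) over all genes. The IgG members besides HSP90AB1 were DNAJC5, DNAJC4 (3.77) and DNAJB13 (3.60). In FLAG-MCM8 the highest folds after HSPD1 and HSPE1 were those of DNAJB1 (6.40), DNAJC7 (6.08), DNAJC21 (6.04) and DNAJC9 (5.69). The strongest DNAJB1 peak lay at an outer start near TECR, and a weaker one (5.54) lay at its main promoter, where S9.6 (5.24) and RNH1 (5.57) also had a peak.

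By role, FLAG-MCM8 peaks stood at J-domain genes, HSP60-HSP10, cytosolic HSP90 genes and 1 small heat-shock gene. None of the 15 HSPA and HSPH genes had a FLAG-MCM8 promoter peak, beside 12.0% of all genes, and 6 had one with S9.6, beside 30.1% (HSPA13, HSPA1B, HSPA4, HSPA8, HSPA9 and HSPH1). None of the 12 ER members had one either, and 9 had one with S9.6. With 12.0% of all genes in the FLAG-MCM8 list, 0 in lists of 12 or 15 genes is near the background. Of the 5 members of the nucleus and ribosome 4 had one, namely DNAJC17 (5.33), DNAJC2 (4.62), DNAJC21 and DNAJC9. DNAJC2, a ribosome-bound J-domain protein, and HSPB7, a small heat-shock protein of muscle (4.62), were in FLAG-MCM8 and in neither S9.6 nor RNH1. These are counts in 1 library and small lists, and the difference between roles was not tested.

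The overlap of FLAG-MCM8 with S9.6 at member promoters was much as over all genes. Of the 35 members with an S9.6 peak 10 had a FLAG-MCM8 peak (28.6%, 16.3 to 45.1), beside 24.6% of all genes with an S9.6 peak. Conversely, 10 of the 16 FLAG-MCM8 members (62.5%) had an S9.6 peak, beside 61.5%. In the RNH1 list 14 of the 16 were found (87.5%, 64.0 to 96.5), beside 58.6%. The 16 members rest on 14 distinct FLAG-MCM8 peaks, which the interval does not allow for. For 12 of the 14 members found in both, peaks of the 2 lists overlapped, and for DNAJC6 and HSP90AA1 they did not. DNAJB4, DNAJC17, DNAJC6 and DNAJC7 were in FLAG-MCM8 and RNH1 and not in S9.6. The 9 members in FLAG-MCM8, S9.6 and RNH1 and not in IgG (12.2%, all genes 5.07%) were DNAJA3, DNAJB1, DNAJC9, DNAJC21, DNAJC27, HSP90AA1, HSPD1, HSPE1 and HSPE1-MOB4, of which the last 3 rest on 1 promoter. Where the FLAG-MCM8 and S9.6 lists both held a member, the fold was higher with FLAG-MCM8 for 2 of 10 (DNAJB1 and HSP90AB1). Over all genes in both lists the share was 50.7%. Of the 8 lower members HSPD1, HSPE1 and HSPE1-MOB4 are 1 shared peak, and the HSP90AA1 peaks did not overlap. On the higher side the strongest DNAJB1 peaks lay at different starts.

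The rule placed every promoter peak within 1 kb of a start, and within that window peaks lay on both sides of it. The median midpoint from the nearest start of the gene, with negative values upstream, was -82 bp (WT), 33 bp (KO), -48 bp (shControl) and -30 bp (shDdx5). In HEK293 it was -9 bp with S9.6, 9 bp in RNH1 and 0 with FLAG-MCM8. The strongest peak was upstream for 15 of 25 members in WT, 8 of 23 in KO, 10 of 18 in shControl and 14 of 25 in shDdx5. The 25 WT members rest on 23 distinct peaks. A start of another protein-coding gene lay within 1 kb of the same midpoint for 11 of 25 members in WT. With S9.6 in HEK293 this was so for 12 of 35, so a peak is not always the member's own. No share over all genes stands beside the counts of side and of nearby starts. Neither is read as a trait of the members or as a shift between lists.

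**Figure D5:**
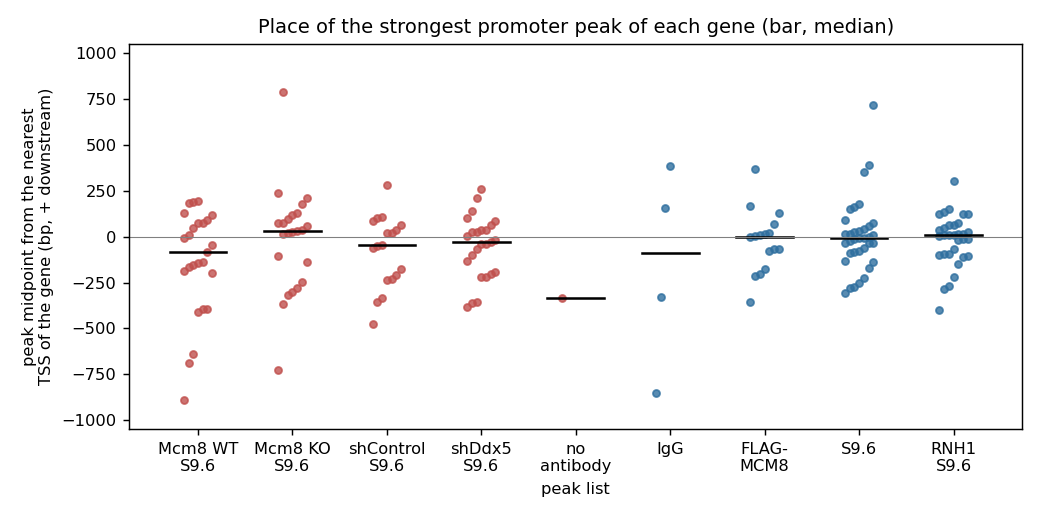
Distance in bp from the nearest TSS of the gene to the midpoint of its strongest promoter peak, for each member with a peak in the 9 lists (MEF red, HEK293 blue, bars are medians, values above 0 are downstream). The medians of the S9.6 and FLAG-MCM8 lists lie between -82 bp (WT) and 33 bp (KO).

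GC skew, the excess of G over C on the coding strand in the 500 bases after the TSS, is known from promoters that form R-loops. It was above 0 for 33 of the 43 mouse members with a promoter peak in at least 1 S9.6 list (76.7%). Of the 29 without a peak it was above 0 for 18 (62.1%). Over all genes these shares were 71.7% and 64.8%. The median skew of mouse members lay the other way, 0.0351 with a peak and 0.0435 without (all genes 0.0628 and 0.0472). In human the skew was above 0 for 27 of the 35 members with an S9.6 peak (77.1%), beside 71.8% of all genes. Without a peak it was above 0 for 23 of 39 (59.0%), beside 64.4%. The human medians of members were 0.0922 with a peak and 0.0258 without (all genes 0.0686 and 0.0464). These differences were not tested. Of the 6 human members with a 3-unit heat-shock element HSP90AA1, HSPA8, HSPD1 and HSPH1 had an S9.6 promoter peak, and HSPA6 and DNAJB6 had none. Over all human genes 28 of the 83 with the element had an S9.6 promoter peak. The printed stretches of HSPA8 and HSPD1 lay under an S9.6 peak. That of HSPH1 lay 78 bp and that of HSP90AA1 29647 bp from the nearest S9.6 peak.

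The other genes of the chaperone pathway, a list of co-chaperones, heat-shock factors and TRiC subunits that are not members, was counted in the same way. Of 40 mouse genes 12 (WT), 20 (KO), 11 (shControl) and 21 (shDdx5) had a promoter peak, and 1 (Tcp1) had one without antibody. These are 30, 50, 27.5 and 52.5% of the list, beside 11.3, 16.0, 14.7 and 23.1% of all genes. Hsf1, which drives the heat-shock response, was in KO, shControl and shDdx5. Of 41 human genes 23 had a promoter peak with S9.6, 22 in RNH1, 10 with FLAG-MCM8 and 4 in IgG. These are 56.1, 53.7, 24.4 and 9.76%, beside 30.1, 24.6, 12.0 and 5.59% of all genes. HSF1 was in FLAG-MCM8 and RNH1, and HSF2 in RNH1.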

How the data were processed

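The authors trimmed and aligned CUT&Tag reads (mm10, hg38) and called peaks for each library with MACS2, without the no-antibody track as input for MEFs. The submitters' processing notes name Trimmomatic, Bowtie2 and MACS2 2.1.2, and the study's methods name another MACS2 release. The deposited narrowPeak columns hold the fold enrichment (a ratio of pileup to local background), the −log10 p and the −log10 q, and the summit offset. The integer score column was not used. All peaks on chromosomes 1 to 19 (mouse) or 1 to 22 (human), X and Y were kept.

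A gene had a promoter peak when a midpoint lay within 1000 bp of the start of any of its transcripts. Pileups were recovered from fold and p (tolerance 0.01 in −log10 p). Shares carry 95% Wilson intervals and differences intervals built from the Wilson ones, for counting error only. The intervals of differences between lists do not use that the same genes were counted in both lists. With 1 library per group no p was computed. A gene with several promoter peaks is described by the one with the highest −log10 p. Genes named with values were the 14 core chaperones, members in all 4 MEF S9.6 lists or shared by the HEK293 lists, members that differ between lists, control-list members and the strongest of each list. The rest were chosen after their values were seen. The members and lists were chosen with earlier results of these data known. The assignment and the pileup recovery were tested on simulated data. Python 3.11.15, pandas 2.3.3 and scipy 1.17.1 were used. The alternatives were the summit, windows of 500 bp and 3 kb, other start sites, stricter thresholds, equal numbers of peaks, and removal of control peaks. After seeing the data, read-through genes were left out and peaks were given to the nearest gene.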

Additional observations from a re-analysis of the deposited data

Results flagged for a closer look

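The share of members with a promoter peak differed in opposite directions in the 2 depletions, -2.78 percentage points in KO less WT and 9.72 in shDdx5 less shControl. Each side is 1 library, both intervals include 0 at the deposited thresholds, and the difference between the 2 depletions was not tested. The WT and shControl lists, neither with a depletion, differed by as much (9.72 points, WT less shControl). Over all protein-coding genes both values were above 0 (4.71 and 8.36).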

How the results depend on the processing

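In the 4 MEF S9.6 lists, the 2 HEK293 S9.6 lists and FLAG-MCM8, the share of members stayed above that of all genes under every alternative, with ranges of 13.9 to 34.7% (WT), 16.7 to 33.3% (KO), 8.33 to 29.2% (shControl), 23.6 to 37.5% (shDdx5), 37.8 to 47.3% (S9.6), 33.8 to 45.9% (RNH1) and 14.9 to 24.3% (FLAG-MCM8). Of 158 values under an alternative 17 lay outside the interval of the value reported, each because fewer peaks or starts were used. With a fold of at least 4 the share was 13.9% in WT, 16.7% in KO, 8.33% in shControl, 23.6% in shDdx5, 0% without antibody and 1.35% in IgG. With a q of 0.05 or lower it was 22.2% in WT and KO, 15.3% in shControl and 0% without antibody. With a p of 1e-05 or lower it was 23.6% in WT, 22.2% in KO and 0% without antibody. The same number of strongest peaks gave 22.2% in KO. Starts of protein-coding transcripts only gave 0% without antibody, and 1 TSS a gene gave 0% without antibody and 1.35% in IgG. A count of 0 of 72 allows up to 5.07% (95% Wilson). The difference of KO less WT lay between -6.94 and 2.78 percentage points and was above 0 under 1 of 12 settings. That of shDdx5 less shControl (8.33 to 19.4) and of FLAG-MCM8 less IgG (12.2 to 20.3) stayed above 0, the interval of the former excluding 0 only with a fold of at least 4 (15.3), a q of 0.05 or lower (19.4) or a p of 1e-05 or lower (18.1), and that of RNH1 less S9.6 lay between -6.76 and 0. Removal of control peaks gave no value for the control lists or for FLAG-MCM8 less IgG. No paired analysis of libraries was possible because each group has 1 library, and for the same reason no library could be left out. The shallowest list, without antibody, limits the MEF background.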

Other observations

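Within gene bodies, away from the members' own starts, peaks were counted for each member they lay in. The counts were 11 to 13 in each MEF S9.6 list, 1 without antibody, and 10 (IgG) to 18 (RNH1) in the HEK293 lists. An IgG peak in DNAJC25 and DNAJC25-GNG10, and a FLAG-MCM8 peak in HSPD1 and HSPE1-MOB4, are each counted for both genes. Some lay at promoters of other genes (2 of 13 in WT, 3 of 14 with S9.6 in HEK293). No count over all genes stands beside these. Most were intronic (11 of 13 in WT, 15 of 18 in RNH1). Over a coding exon lay the WT peak of Hspd1 (fold 3.90), the shDdx5 peak of Hspa9 (4.31), the FLAG-MCM8 peaks of DNAJC5B (4.98) and HSPA12A (4.01), the S9.6 peak of DNAJC11 (3.50), the RNH1 peak of DNAJB12 (3.26) and the IgG peak of DNAJA3 (4.27). DNAJC5 had 3 intronic FLAG-MCM8 peaks and no FLAG-MCM8 promoter peak.

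By symbol, 70 members were found in both mouse and human, and their promoter peaks were counted at a p of 1e-05 or lower in both species. Of the 33 with an S9.6 promoter peak in HEK293, 9 also had one in WT MEFs, 11 in KO, 7 in shControl and 14 in shDdx5. HSPA8 was shared in each of the 4, DNAJB1, DNAJC13 and HSP90AA1 in WT, KO and shDdx5, DNAJA1 in KO, shControl and shDdx5, and DNAJA3 in WT, shControl and shDdx5. The 4 counts are set against the same HEK293 list. The share of the MEF members also found in HEK293 was 56.3% (WT), 73.3% (KO), 63.6% (shControl) and 58.3% (shDdx5), beside 65.2%, 63.9%, 61.1% and 60.5% of all such genes with a symbol in both species.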
